A study of Mus musculus with 4 samples.

Results

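Neural crest and EMT (epithelial to mesenchymal transition) factors are described here as 10 transcription factor genes: Snai1, Snai2, Twist1, Zeb2, Tfap2a, Tfap2b, Pax3, Msx1, Sox9 and Foxd3. They were taken by name from tables of 21690 features. Of the 10, 8 were listed under these symbols and 2, Tfap2a and Tfap2b, under the older symbols Tcfap2a and Tcfap2b, which RefSeq gives as synonyms. RNA was sequenced from neural precursors made from A2lox mouse embryonic stem cells that carry a doxycycline-inducible knockdown of Geminin, a small protein of the nucleus that holds back replication licensing through Cdt1. All cells came from this line and were differentiated for 5 days as a monolayer in serum-free N2B27 medium. The 3 knockdown libraries, from independent experiments, received 500 ng doxycycline from day 3, and the 1 control library received none. The series describes a corresponding control for the replicates, but 1 control library was compared with all 3 knockdown libraries here. Doxycycline given without the knockdown was not analysed here, so the drug and the knockdown cannot be told apart.

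Neural crest cells arise at the border of the neural plate and leave the dorsal neural tube by an epithelial to mesenchymal transition. Pax3 and Msx1 act early, at the neural plate border, together with the AP-2 proteins encoded by Tfap2a and Tfap2b. Foxd3, Snai2 and Sox9 mark the specified crest, and the zinc finger proteins of the Snail and Zeb families and the basic helix-loop-helix protein Twist1 repress epithelial genes such as Cdh1, which encodes E-cadherin. Several of these genes also act elsewhere: Sox9 in radial glia, Foxd3 in pluripotent stem cells, Zeb2 in differentiating neural cells, and Twist1 and Snai2 in fibroblasts.

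RefSeq promoter entries (GRCm38.p6) were found for 7 of the 10 genes, and 4 are shown over the 250 bases before the start site. Tfap2b and Foxd3 are shown because they had the largest folds among the 10 genes, and Snai1 and Twist1 because their values ran in parallel over the libraries. Capitals mark E-boxes (CANNTG, the element bound by helix-loop-helix, Snail and Zeb proteins) and the AP-2 element GCCNNNGGC. All 4 are on the plus strand: Tfap2b at chr1:19211804-19212053, Foxd3 at chr4:99656049-99656298, Snai1 at chr2:167537945-167538194 and Twist1 at chr12:33957421-33957670.
Tfap2b: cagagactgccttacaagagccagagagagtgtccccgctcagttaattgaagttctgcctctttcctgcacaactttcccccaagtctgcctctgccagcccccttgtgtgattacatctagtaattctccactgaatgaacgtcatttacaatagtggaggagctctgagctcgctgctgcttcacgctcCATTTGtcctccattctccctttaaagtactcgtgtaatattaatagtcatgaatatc
Foxd3: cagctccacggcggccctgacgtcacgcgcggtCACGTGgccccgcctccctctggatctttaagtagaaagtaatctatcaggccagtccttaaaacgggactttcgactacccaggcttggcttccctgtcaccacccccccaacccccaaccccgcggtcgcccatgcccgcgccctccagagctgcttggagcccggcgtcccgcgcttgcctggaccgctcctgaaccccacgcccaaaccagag
Snai1: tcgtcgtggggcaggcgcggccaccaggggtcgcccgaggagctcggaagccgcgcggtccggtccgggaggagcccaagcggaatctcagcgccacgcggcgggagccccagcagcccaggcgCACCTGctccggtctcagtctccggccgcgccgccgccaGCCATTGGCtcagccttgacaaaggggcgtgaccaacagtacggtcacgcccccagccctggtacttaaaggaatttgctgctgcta
Twist1: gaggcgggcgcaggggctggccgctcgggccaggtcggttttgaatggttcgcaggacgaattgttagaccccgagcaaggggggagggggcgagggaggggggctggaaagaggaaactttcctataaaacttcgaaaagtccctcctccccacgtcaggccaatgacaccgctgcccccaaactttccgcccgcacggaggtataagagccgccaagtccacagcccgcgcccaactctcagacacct

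The Snail and Zeb core CAGGTG, searched on both strands (CACCTG on the other) and a subset of CANNTG, was found in 2 of the 7 genes, Snai1 at -126 and Msx1 at -210 from the start site. It is present in 17.2% of 32851 promoters of the same length. Any CANNTG was found in 4 of the 7 genes, against 66.2% of promoters. It starts at -58 in Tfap2b and at -217 in Foxd3, and the Twist1 window holds none. GCCNNNGGC was found in 2 of the 7, Snai1 and Zeb2, against 13.7% of promoters, and the TCF element CTTTGAT on either strand in 0, against 3.21%. In Zeb2 it was in 2 overlapping entries of 4. Genes were counted over 11 promoter entries, with 4 for Zeb2 and 2 for Tfap2a, while the shares count single promoters, so the 2 are unlike measures. The window is 46.4% G and C in Tfap2b, 65.6% in Foxd3, 70.0% in Snai1 and 62.4% in Twist1. These matches describe letters only, and the expression tables use another build, mm9, so the windows were not placed on them.

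Values are FPKM, a measure scaled by exon length and library size, so levels can be compared between genes. Gmnn, which encodes Geminin, was at 24.0%, 58.4% and 24.7% of the control in knockdown libraries 1, 2 and 3. The authors marked it significant in libraries 1 and 3 and not in library 2, where the q-value was 0.0722. The libraries differed little in depth: libraries 1, 2 and 3 were at 1.00, 1.15 and 0.972 times the control. Markers of neural precursors were present in all libraries, with Sox2 at 135 to 203 FPKM, Nes at 100 to 125 and Pax6 at 48.8 to 75.6. Sox10, which defines migrating neural crest and its glia, was at or under 0.183 FPKM in all 4 libraries, and the melanocyte genes Dct, Tyr and Tyrp1 were listed at 0. Libraries 2 and 3 stood apart from library 1 and the control in many markers, as given beside the results below. Library 1 had the lowest Gmnn and library 2 the highest of the knockdown libraries, so these differences did not follow the order of Gmnn. The reason was not tested.

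In the control the 10 genes spanned a wide range. Zeb2 (18.7 FPKM) and Pax3 (16.7) were highest, followed by Twist1 (8.48), Snai1 (7.31), Sox9 (2.68), Tfap2b (2.08), Msx1 (1.10), Snai2 (1.02), Tfap2a (0.825) and Foxd3 (0.0706). Zeb2 was above Pax3 in knockdown libraries 1 and 3 and below it in library 2. Twist1 was above Snai1 within every library, although their ranges over the knockdown libraries overlapped. Differences between genes were not tested, and the single control has no spread of its own. In knockdown library 3 the order changed, and Tfap2b was the most abundant of the 10.

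**Figure D1:**
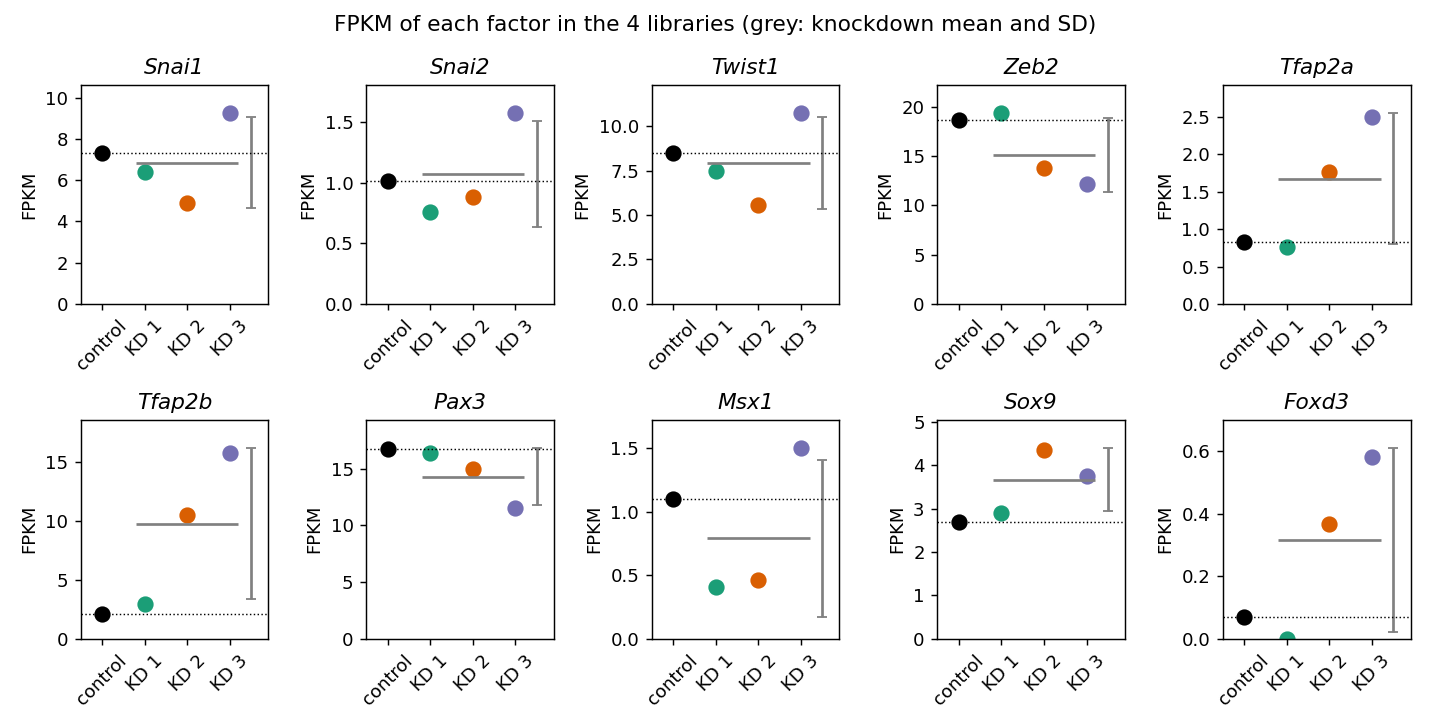
FPKM (y axis, linear, a scale for each gene) of the 10 genes in the control (black, dotted line) and in knockdown (KD) libraries 1 to 3; the grey line and bar give the knockdown mean and SD (n = 3). Tfap2b rises from 2.08 in the control to 15.8 in library 3, while the control lies among the knockdown libraries for Snai1, Snai2, Twist1 and Zeb2.

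Of the 10 genes 1 rose, Tfap2b, and 0 fell by the rule stated for the series, which calls a feature when at least 2 of the authors' 3 deposited tables mark it, in the same direction. Over the 14477 features that could be called, the rule called 1.98% higher and 0.905% lower. Of the 10 genes 8 could be called, so a count of 1 is too small to set against that share. Tfap2a and Foxd3 lacked usable tests in enough tables, and the other 7 were tested and not called. Tfap2b was also the only one of the 10 marked in any single table, where 2.43%, 5.24% and 4.62% of tested features were marked in libraries 1, 2 and 3. In limma, fitted to log2(FPKM + 1) of 12243 features, 8 of the 10 genes passed the filter of a mean FPKM of at least 1, and 0 of these were called at an adjusted p threshold of 0.05, against 0.155% of all features. None of the 8 reached an unadjusted p of 0.05 either. The median of their mean log2 ratios was -0.05, against 0.01 over all features in the fit. The same fit did not call Gmnn, the target of the knockdown (log2 change -1.59, adjusted p = 0.993). A gene that limma left uncalled may therefore still have changed. Fold changes on the log2(FPKM + 1) scale understate changes of low genes.

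Tfap2b encodes AP-2 beta, a transcription factor of the neural plate border, the neural crest and some neurons. Its gene lies on chromosome 1 from 19198994 to 19228815 (mm9). It had 2.99, 10.6 and 15.8 FPKM in knockdown libraries 1, 2 and 3, compared with 2.08 in the control. All 3 knockdown libraries were above the control, library 1 by the least. The folds were 1.44 (95% interval 0.773 to 2.68), 5.08 (3.13 to 8.24) and 7.60 (4.86 to 11.9), with intervals derived from the authors' deposited Cuffdiff statistic, which compares 1 library with 1 library. The authors' deposited tables gave p = 4.44e-11 in library 2 and p = 0.252 in library 1. Over the 3 libraries the mean was 9.78 ± 6.44 FPKM (SD, n = 3), and limma estimated the log2 change at 1.58 ± 0.87 (SE; adjusted p = 0.993). The study's rule therefore called Tfap2b, and limma, which takes the spread between the knockdown libraries into account, did not. The call rests on libraries 2 and 3 together: 0 of the 10 genes were called without library 2 or without library 3.

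Tfap2a, which encodes the related AP-2 alpha, had 0.768, 1.76 and 2.50 FPKM in libraries 1, 2 and 3, compared with 0.825 in the control. Libraries 2 and 3 were above the control and library 1 was just below it. The fold was 2.14 in library 2, where the table gives no usable test, and 3.03 (95% interval 1.25 to 7.36) in library 3, where the authors' deposited table gave p = 0.0142 and a q-value of 0.178. Limma estimated the log2 change at 0.50 ± 0.48 (SE; adjusted p = 0.993). The other AP-2 genes did not share this order. Tfap2c had 2.75, 1.27 and 3.58 FPKM against 5.08 and was below the control in every knockdown library, with a significant mark in library 2 only. Tfap2e was at or under 0.494 FPKM and Tfap2d was listed at 0 in all 4 libraries.

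Foxd3, a forkhead repressor of the early neural crest that is also expressed in pluripotent stem cells, was the lowest of the 10. It was listed at 0 in library 1 and had 0.367 and 0.581 FPKM in libraries 2 and 3, while the control had 0.0706. These values are whole multiples of a single read and correspond to 0, 6 and 8 reads in libraries 1, 2 and 3 if the control held 1 read. The ratio to the control was then 5.20 in library 2 (exact 95% counting interval 0.631 to 239) and 8.23 in library 3 (1.10 to 365). The intervals cover counting error only, and Foxd3 was too low for the authors' test and for the filter of the limma fit.

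**Figure D2:**
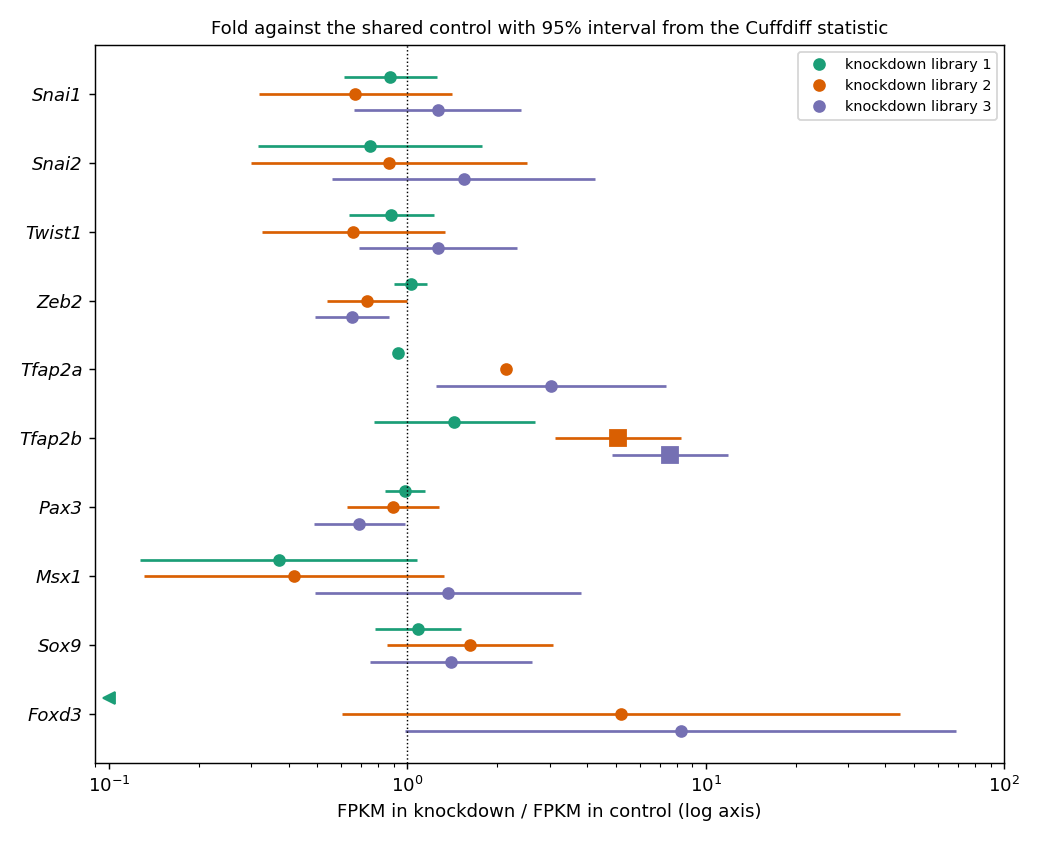
Fold of FPKM in each knockdown library over the control (x axis, log scale) for the 10 genes (y axis), with 95% intervals derived from the deposited Cuffdiff statistic where one could be had; squares mark the comparisons that the authors marked significant, and the arrow marks Foxd3 in library 1, listed at 0. The 2 squares are Tfap2b at 5.08 in library 2 and 7.60 in library 3, and most other intervals cross 1.

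Markers of several cell types differed in the same libraries. Among 13 pluripotent cell markers 8 rose and 1 fell, and the median log2 ratio of those in the fit was 0.06, 1.37 and 1.98 in libraries 1, 2 and 3. Zfp42, a naive stem cell marker, had 4.68, 33.0 and 58.0 FPKM against 3.74, and Tdgf1, a Nodal co-receptor of early embryonic cells, had 1.68, 14.6 and 35.5, compared with 1.42. Both were above the control in library 2 and highest in library 3, as were Tfap2b, Tfap2a and Foxd3. This order was not particular to pluripotent markers: the fibroblast markers Postn and Lox and the mesoderm marker Tcf15, named further on, had it too. The summed level of the pluripotent list was 538 to 789 FPKM in the knockdown libraries against 563 in the control, and Lin28a, its most abundant member in the control, fell. Among 18 neuronal markers 12 rose and 0 fell, with medians of 0.11, 2.45 and 1.46 and a summed level of 165, 668 and 332 FPKM against 155. There library 2 was highest. Surface ectoderm markers, another source of AP-2, fell in 4 of 11 and rose in 0, and their summed level was 395, 47.6 and 144 FPKM against 354. All 4 that fell, Krt8, Krt18, Grhl2 and Epcam, are also in the epithelial list given further on, and they hold 343 of the 354 FPKM in the control. Trp63, Krt5 and Krt14, markers of stratified surface epithelium, were at or under 0.514, 0.103 and 0.0524 FPKM. The part of these cells in the Tfap2b, Tfap2a and Foxd3 values was not tested, and in such bulk samples fewer cells of a type and less RNA per cell cannot be told apart.

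The features whose 3 log2 ratios lay nearest to those of Tfap2b were the predicted genes Gm8300, Gm10324 and Gm4305. Gm8300 had 2.46, 8.93 and 15.2 FPKM in libraries 1, 2 and 3, compared with 1.80 in the control. Gm10324 had 0.445, 3.49 and 4.94 against 0.0893, and Gm4305 had 0.448, 4.08 and 5.71 against 0.180. With control values this low, these 2 are alike to Tfap2b on the log2(FPKM + 1) scale only, and their plain folds are far larger. The likeness is the Euclidean distance over 3 ratios, 0.13 for Gm8300, and the 3 ratios share a control.

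**Figure D3:**
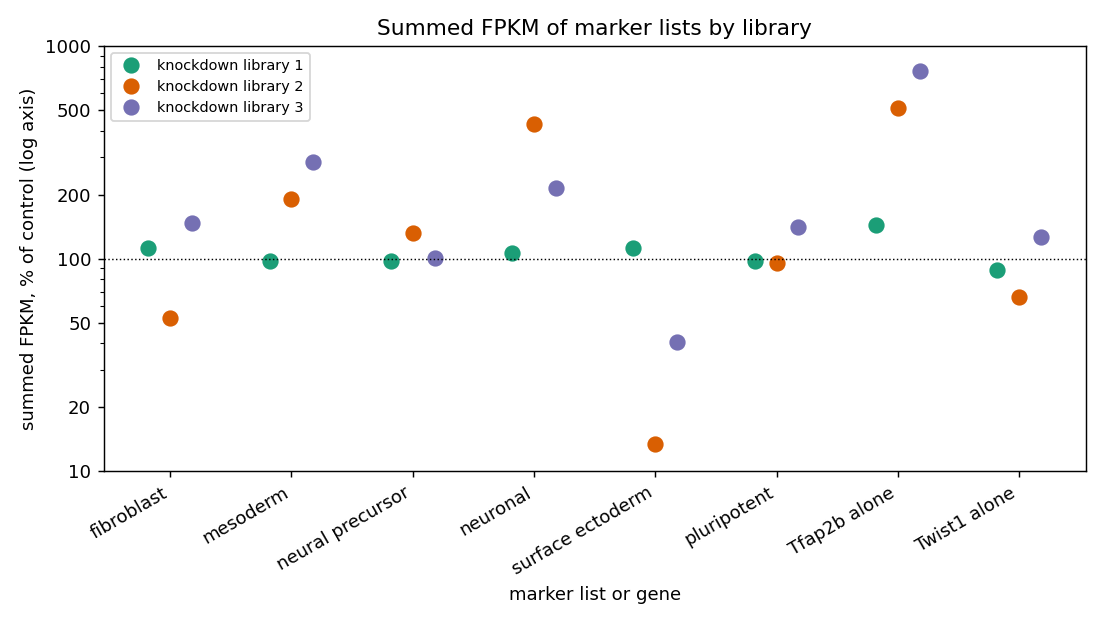
Summed FPKM of 6 marker lists in each knockdown library as a percentage of the control (y axis, log scale), with Tfap2b and Twist1 alone at the right. Library 1 lies between 97.2% and 112% of the control in every list; in libraries 2 and 3 the neuronal sum is 432% and 214%, the surface ectoderm sum 13.5% and 40.6%, and Tfap2b 508% and 760%.

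Pax3, a paired-box factor of the dorsal neural tube, had 16.4, 15.0 and 11.5 FPKM in libraries 1, 2 and 3, compared with 16.7 in the control. All 3 were below the control, library 1 by very little. In library 3 the fold was 0.690 (95% interval 0.485 to 0.982), with p = 0.0394 and a q-value of 0.344 in the authors' deposited table. Limma estimated the log2 change at -0.22 ± 0.24 (SE; adjusted p = 0.993). Its paralog Pax7 had 5.48, 10.3 and 7.63 FPKM against 5.42 and was not called.

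Msx1, a homeobox factor of the neural plate border and roof plate, had 0.409, 0.461 and 1.50 FPKM in libraries 1, 2 and 3, compared with 1.10 in the control. Libraries 1 and 2 were below the control and library 3 above it, so the groups overlapped. The fold was 0.371 (95% interval 0.128 to 1.08) in library 1 and 1.37 (0.492 to 3.81) in library 3. The gene overlaps Msx1as, an antisense feature at or under 0.601 FPKM, and without strand information their reads cannot be told apart. Its paralog Msx2 had 3.60, 5.22 and 9.02 FPKM against 3.75 and was not called.

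Among 19 other genes of the dorsal neural tube and roof plate, where the neural crest originates, 1 rose and 0 fell. The gene that rose was Bmp6, a secreted BMP ligand, with 2.63, 19.1 and 18.3 FPKM in libraries 1, 2 and 3, compared with 3.19 in the control. The median log2 ratio of the 14 in the fit was 0.04, -0.24 and 0.39. Olig3, a factor of dorsal progenitors, had 2.46, 1.43 and 8.30 FPKM against 2.63 and was marked in library 3 only. Bmp4, another BMP ligand, had 4.18, 0.705 and 6.30 FPKM against 5.82 and was marked, as lower, in library 2 only. The call of Bmp6 needs libraries 2 and 3 together, as does that of Cdh11.

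Sox9, an HMG-box factor of the crest and of radial glia, had 2.91, 4.35 and 3.76 FPKM in libraries 1, 2 and 3, compared with 2.68 in the control. All 3 knockdown libraries were above the control. The values correspond to 75, 129 and 94 reads against 69. The folds were 1.08 (95% interval 0.777 to 1.51), 1.62 (0.852 to 3.08) and 1.40 (0.750 to 2.62), and each interval includes 1. Limma estimated the log2 change at 0.33 ± 0.28 (SE; adjusted p = 0.993). Of the 8 genes in the limma fit, 2 were above the control in every knockdown library, Tfap2b and Sox9, and 1 was below it in every one, Pax3. The corresponding shares over all features in the fit were 22.9% and 22.6%, and for the remaining 5 of 8, where the control lay between the knockdown libraries, 54.5%.

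Snai1, the Snail repressor of Cdh1, had 6.41, 4.90 and 9.24 FPKM in libraries 1, 2 and 3, compared with 7.31 in the control. Twist1 had 7.49, 5.59 and 10.7 against 8.48. Both genes were below the control in libraries 1 and 2 and above it in library 3, so their groups overlapped. The folds of Snai1 were 0.876, 0.670 and 1.26, and those of Twist1 were 0.883, 0.659 and 1.26. The 2 genes lie on different chromosomes, Snai1 on chromosome 2 from 167363726 to 167368311 and Twist1 on chromosome 12 from 34642535 to 34644696 (mm9). Limma gave a log2 change of -0.12 with a standard error of 0.36 for Snai1 and of -0.13 with a standard error of 0.37 for Twist1 (adjusted p = 0.994 for both). Both directions turned without library 2, to 0.07 for each gene.

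Snai2, which encodes Slug, had 0.760, 0.882 and 1.57 FPKM in libraries 1, 2 and 3, compared with 1.02 in the control. It was highest in library 3 and overlapped the control. The values correspond to 9, 12 and 18 reads against 12, and the fold in library 3 was 1.54 (95% interval 0.559 to 4.26). A change of that size was not detectable at this depth. Snai3, of the same family, and Twist2, the relative of Twist1, were at or under 0.569 and 0.719 FPKM.

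Read numbers and the standard errors implied by the deposited tests are set side by side here. Snai1 corresponded to 58, 51 and 81 reads in libraries 1, 2 and 3, compared with 66 in the control, and Twist1 to 70, 60 and 97 against 79. For Snai1 the standard error implied by the Cuffdiff statistic, in natural log units, was 0.183, 0.379 and 0.329 in libraries 1, 2 and 3. Twist1 had 0.167, 0.361 and 0.311, and Sox9 had 0.170, 0.328 and 0.319. The read numbers were chosen so that counting error lay near the library 1 standard error. Its nearness to counting error in library 1, 1.02 times for Twist1 and Sox9, was therefore fixed by that choice and is no result. With the same read numbers, the standard errors in libraries 2 and 3 were 2.03 and 1.98 times counting error for Snai1. For Twist1 and Sox9 they were between 2.01 and 2.20 times. For these 3 genes a mark in library 1 therefore needed a smaller change than a mark in library 2 or 3, and they had none in any table. For Tfap2b the standard errors were 0.317, 0.247 and 0.228 in libraries 1, 2 and 3. Its read numbers were not recovered and its FPKM differed between the libraries, so these errors cannot be set against counting error.

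Zeb2, a zinc finger repressor of Cdh1 that also acts in neural differentiation, had 19.3, 13.8 and 12.2 FPKM in libraries 1, 2 and 3, compared with 18.7 in the control. Libraries 2 and 3 were below the control, while library 1 was level with it. The fold was 0.734 (95% interval 0.540 to 0.999) in library 2 and 0.655 (0.492 to 0.871) in library 3, with q-values of 0.373 and 0.0714 in the authors' deposited tables, neither of them marked. Limma estimated the log2 change at -0.32 ± 0.28 (SE; adjusted p = 0.993). Zeb2 overlaps Gm13476, which had 13.2, 16.1 and 3.32 FPKM against 16.4, and their reads cannot be told apart where they overlap. Its paralog Zeb1 lay on the other side of the control, with 15.9, 28.2 and 24.1 FPKM against 15.1, and was marked in library 2 only. Of 14 paralogs of the 10 genes, 0 were called, with 9 that could be; Zeb1 and Pax7 were the most abundant.

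Epithelial genes, which include known targets of Snail and Zeb repression such as Cdh1, fell in 12 of 20 members and rose in 0. Cdh1 had 74.2, 6.63 and 18.8 FPKM in libraries 1, 2 and 3, compared with 65.2 in the control, which is 114%, 10.2% and 28.8%. In the same libraries Snai1 stood at 87.6%, 67.0% and 126% of the control and Zeb2 at 103%, 73.4% and 65.5%. Zeb1, the paralog of Zeb2, stood at 106%, 187% and 160% and was marked in library 2 only. The part of these factors in the epithelial values was not tested. Over the 17 epithelial genes in the fit the median log2 ratio was -0.01, -2.19 and -1.39, against -0.01, 0.03 and 0.01 over all features. Cldn4, a claudin of tight junctions, had 22.3, 0.991 and 2.94 FPKM against 22.7, and Esrp1, a splicing regulator of epithelial cells, had 5.76, 0.617 and 0.560 against 6.36. The 12 calls came from libraries 2 and 3 together, so without either of them 0 of these genes meet the rule.

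Of 16 mesenchymal genes 2 rose, Vim and Cdh11, and 0 fell. Vim, which encodes the intermediate filament vimentin of mesenchymal and neural precursor cells, had 376, 1005 and 958 FPKM in libraries 1, 2 and 3, compared with 388. Cdh11, a cadherin of mesenchyme and migrating crest, had 16.5, 41.8 and 31.1 against 17.3. Cdh2, which encodes N-cadherin, had 139, 153 and 123 FPKM against 145 and was not called, and Fn1, fibronectin, had 89.1, 63.6 and 95.4 FPKM against 85.3 in the control. The 15 in the fit had a median log2 ratio of 0.02, 0.08 and 0.55.

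**Figure D4:**
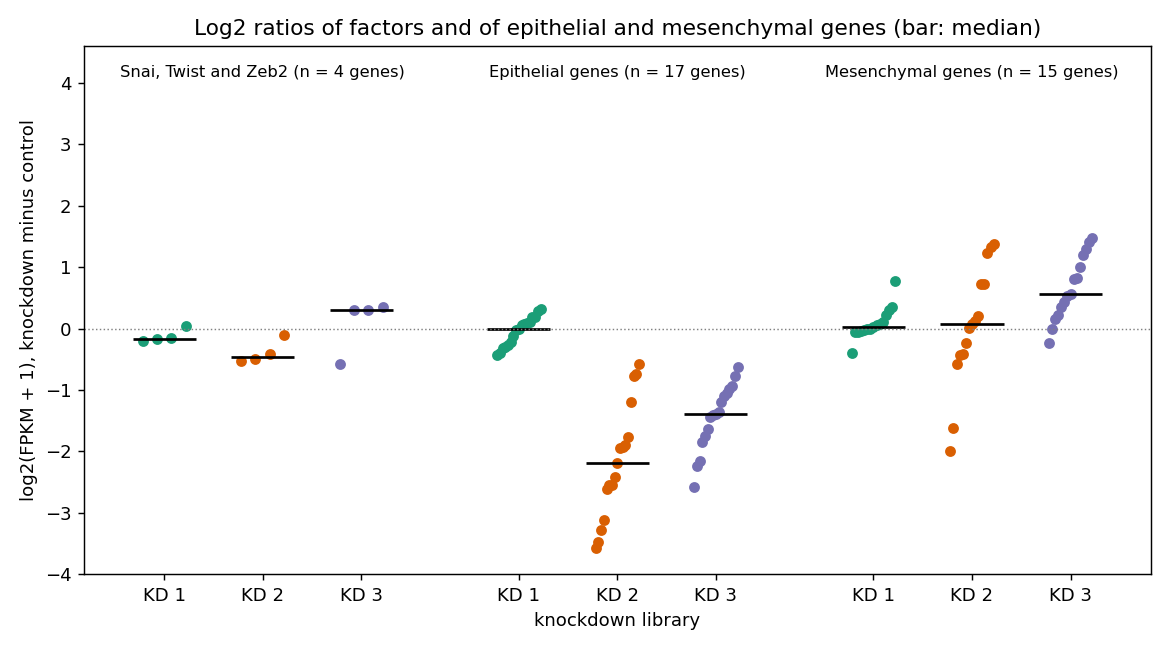
Log2 ratio on the log2(FPKM + 1) scale of knockdown over control (y axis) in each knockdown library (x axis) for Snai1, Snai2, Twist1 and Zeb2, for 17 epithelial and for 15 mesenchymal genes with a mean FPKM of at least 1; each point is a gene and bars are medians. Epithelial genes have medians of -2.19 in library 2 and -1.39 in library 3, and the 4 factors lie between -0.57 and 0.35. Zeb1, not drawn, had ratios of 0.07, 0.86 and 0.64 in libraries 1, 2 and 3.

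Before differentiation the cells were grown on feeder fibroblasts, which also express Snai1, Snai2 and Twist1. Of 24 fibroblast markers 4 rose and 0 fell. Postn, a matrix protein, had 2.71, 4.74 and 6.55 FPKM in libraries 1, 2 and 3, compared with 1.23, and Lox, a collagen cross-linking enzyme, had 4.54, 9.41 and 16.1 against 3.56. Over the 18 in the fit the medians were 0.04, 0.36 and 0.70 on the log2 scale. The summed level of the list was 382, 179 and 499 FPKM against 340. Acta2 and Tagln, genes of contractile cells, made up 304, 77.8 and 345 FPKM of that against 267, with Tagln at 172, 51.6 and 187 against 160. The other 22 genes summed to 77.4, 101 and 154 FPKM against 73.1, so that library 2 was below the control through Acta2 and Tagln and above it without them. Snai1 and Twist1 were below the control in library 2. The fibroblast genes Lum and Fap were at or under 0.408 and 0.253 FPKM. Among mesoderm markers 1 of 14 rose, Tcf15, and 0 fell, and Mesp1 and Msgn1 were listed at 0. The part of fibroblasts or mesoderm in the values of Snai1, Snai2 and Twist1 was not tested.

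Among 38 other genes of the neural crest network 1 rose, Cdh11, whose values are given with the mesenchymal genes. The median log2 ratio of the 30 in the fit was -0.06, -0.35 and 0.10. Among genes of neural crest derivatives, Ednrb, the endothelin receptor of crest and radial glia, had 94.0, 308 and 245 FPKM against 99.2 but was marked in library 3 only. Ngfr, a receptor used to mark crest cells, had 0.669, 3.70 and 2.42 FPKM against 1.82 and was not marked.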

How the data were processed

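RNA-seq of 3 Geminin knockdown libraries and 1 control library was used. Per the submitters' processing notes, reads were aligned with TopHat and compared with Cufflinks and Cuffdiff on mm9; their versions and the annotation used: not given in the sources used here. Each of the 3 tables the authors deposited sets 1 knockdown library against the same control and gives FPKM for both, a Cuffdiff p-value, a q-value, a test statistic and a natural log ratio of control over knockdown. The q-value, statistic and log ratio, as deposited by the authors from Cuffdiff, are treated as scores, since the q-value exceeds 1 and infinite values are coded as numbers. Control values can differ slightly between tables, so ratios were formed within a table. Files that repeat only the marked features were not used.

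The members and gene lists were chosen with earlier results of these data known. The text names all 10 genes and Gmnn, and from each list up to 4 called genes, taken by the size of their mean log2 ratio, or, where none was called, the 2 most abundant; other genes were named after their values were seen (among them Sox2, Nes, Pax6, Sox10, Tfap2c, Pax7, Msx2, Olig3, Zeb1, Cdh2, Fn1, Tagln, Ednrb and Ngfr). Limma 3.58.1 (R 4.3.3) with a trended prior was fitted to log2(FPKM + 1) of features with a mean FPKM of at least 1, with Benjamini-Hochberg adjustment. It has 2 residual degrees of freedom and assumes that the lone control varies like the knockdown libraries. It was tested on simulated data with a smaller spread between libraries than any of the 10 genes had. Log2 ratios of these genes had SDs from 0.23 (Sox9) to 1.08 (Tfap2b), so the simulation does not show what the fit could detect here. Some genes that the naming rule takes are not reported here. An exact permutation of 3 against 1 cannot go below p = 0.5 two-sided, so none was run.

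The tables hold no counts. Relative depth came from features too low for a test, whose ratios were whole-read ratios within 0.2% in 84.8% to 87.9% of cases. Reads of a gene were taken from the 3 ratios where a control read number made all of them whole within 0.05 reads and lay near that implied by the library 1 test. For Foxd3 the smallest such number was used. They carry counting error only.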

Additional observations from a re-analysis of the deposited data

How the results depend on the processing

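The 8 genes in the limma fit were recomputed with a pseudocount of 0.1, with each table centred on its median, and without each knockdown library. Of 40 such values 37 kept their direction and stayed uncalled. The 3 that turned came from leaving out a library, over which Snai1 ranged from -0.33 to 0.067 and Twist1 from -0.34 to 0.073 (both positive without library 2), and Snai2 from -0.15 (without library 3) to 0.12. Over all alternatives the smallest adjusted p of the 10 genes was 0.406 in limma. Foxd3 and Msx1 enter limma only without the filter, with log2 changes of 0.27 and -0.28 (adjusted p = 1.00 for both).

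Requiring a mark in all 3 tables left 0 of the 10 genes called, and 3 features higher and 14 lower overall. Requiring a mark in 1 table gave 758 higher and 510 lower, with Tfap2b again the 1 gene called. With a library left out, the counts ranged from 0 to 1 for the 10 genes, from 12 to 272 for features higher and from 22 to 120 for features lower, since both remaining tables must then mark a feature. The main counts were 286 and 131. Limma called 19 features, 8 with a pseudocount of 0.1, 228 without the filter, and 0 to 33 with a library left out. Of the 10 genes, limma called 0 under every alternative run. No paired analysis was possible because the control is a single library and shares only 1 replicate number with the knockdown libraries. Depth limits Foxd3, Snai2, Msx1 and Tfap2a most.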
